A study of Mus musculus with 21 samples.

Results

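The comparison covered 1 day of development in the cells of the mouse embryonic pancreas that lack the Foxa2-Venus fusion (FVF- cells), E13.5 against E12.5. The fusion is a fluorescent reporter of Foxa2, a transcription factor of the pancreatic epithelium, and fluorescence-activated sorting separated each pancreas into FVF+ and FVF- cells. The FVF- E12.5 group held 2 arrays and the FVF- E13.5 group 2 arrays, 4 of the 21 arrays in the study. The members were taken by their labels alone, and all 19296 genes with a symbol of their own on the array were tested. Every group carried the reporter on a mixed background of the C57-Bl6, SV129 and CD1 strains, and the groups differed in embryonic day and in the side of the sort. The other 17 arrays entered the fit to estimate the spread: 6 of FVF- cells at E14.5 and E15.5 and 11 of FVF+ cells from E12.5 to E15.5. The design text calls the arrays of a group biological replicates and does not say how many embryos each one pooled.

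FVF- cells are what remains of the organ once the Foxa2 epithelium is taken out. Mesenchyme makes up most of such tissue, with mesothelium, vessels, blood cells, macrophages, neural crest cells and nerves beside it. The mesenchyme surrounds the branching epithelium, lays down collagens and proteoglycans, and sends signals on which the growth of the epithelium depends. The macrophages of an embryonic organ arrive from outside it.

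Foxa2 itself served as the check of the sort. Its signal, on the log2 scale of the deposited values, was 8.11 and 8.26 in the E12.5 FVF- arrays and 8.11 and 8.20 in the E13.5 FVF- arrays, against group means of 11.19 and 11.14 in FVF+ cells on the same days. The FVF- difference was -0.03 ± 0.22 (SE, limma adjusted p = 0.966). The mesenchymal markers Pdgfrb (12.90, 12.97, 12.90 and 13.06) and Vim (14.22, 14.23, 14.15 and 14.41) stood at high signal in the same 4 arrays, given here and below as E12.5 replicates 1 and 2 and then E13.5 replicates 1 and 2. Epcam, a surface protein of epithelia, read 7.03, 7.11, 7.29 and 7.61.

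In the limma fit, 197 of 19296 genes passed an adjusted p under 0.05 (1.02%), of which 166 rose (0.86%) and 31 fell (0.161%). The unadjusted p was under 0.05 for 2667 genes. The median difference of all genes was -0.045, so the called genes ran mostly against the direction of the bulk. Of the calls, 61 reached 2-fold, 60 of them upward. The median rise was 0.89 on the log2 scale and the median fall -0.56. In all 166 risen genes both E13.5 arrays lay above both E12.5 arrays, and in all 31 fallen genes both lay below. Over all genes these patterns held for 16.4% and 28.8%. The genes were called on the difference between these same arrays, which favours such patterns, so they are no separate support for the calls. The falls lay among dim genes, with 23 of the 31 below the median signal of 8.77, against 66 of the 166 rises.

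The number of calls rested on single arrays. Without E12.5 replicate 2 it was 4, without E12.5 replicate 1 it was 49, without E13.5 replicate 1 it was 72 and without E13.5 replicate 2 it was 413. Since the days did not overlap for any of the 197 genes, their direction could not change in these 4 fits. The 3 genes called in every one of them were Ngp, Aspn and Rxfp1. The E13.5 arrays were less alike than the E12.5 arrays: 196 genes differed 2-fold or more between the E13.5 replicates and 14 between the E12.5 replicates. Replicate 2 of E13.5 is also the only one of the 4 whose description carries a letter in place of a number, and the labels do not explain the letter. Whether it marks a batch was not tested, and day and letter can be told apart only through replicate 1.

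The 12 largest named rises included genes of the extracellular matrix and of white blood cells, and the largest falls were in genes of varied roles. Osr2, Ebf1 and Zfp931 were also among these rises and were counted in neither class. Zfp931 read 6.22, 5.66, 7.42 and 8.06 (1.80 ± 0.27, SE, limma adjusted p = 0.00402), and its FVF- mean was 6.61 at E14.5. The matrix genes Aspn, Lum and Ogn rose 4.66- to 6.70-fold. Ngp, a granule protein of neutrophils, rose most of all genes, 7.44-fold.

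**Figure D1:**
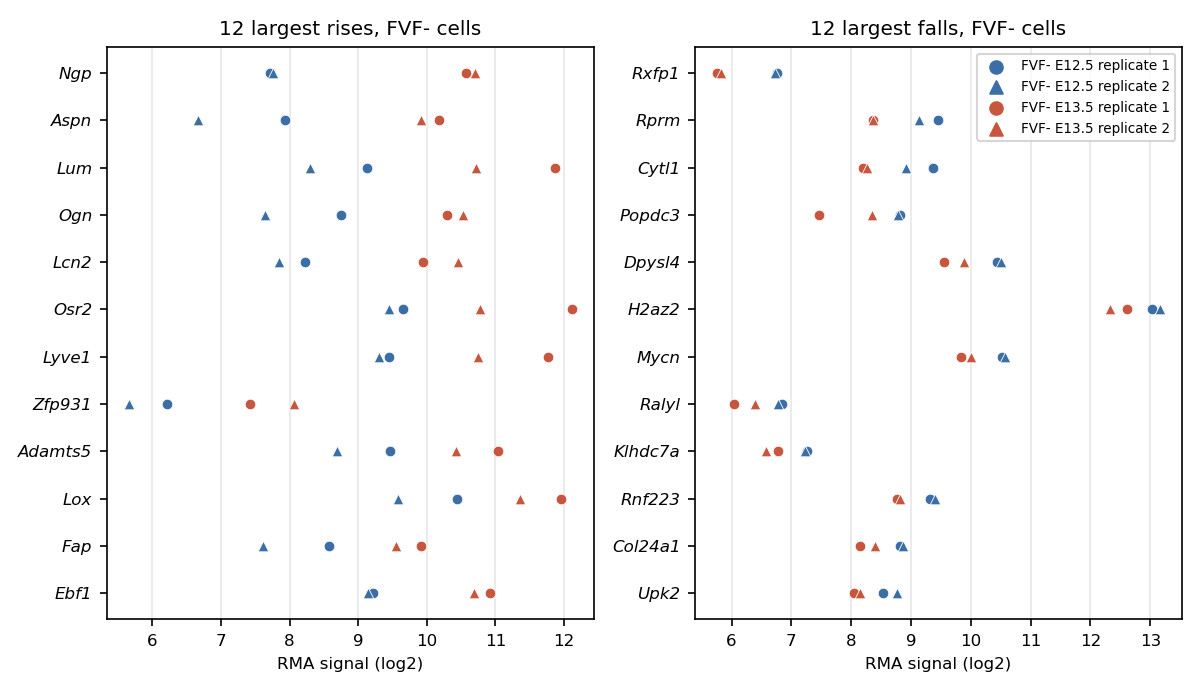
Log2 RMA signal (horizontal axis) of the 12 named genes that rose most (left) and the 12 that fell most (right) in FVF- cells, 1 point per array, blue for E12.5 and red for E13.5, with circles for replicate 1 and triangles for replicate 2. In every row the red points lie on one side of the blue points; Ngp runs from 7.72 and 7.76 to 10.57 and 10.70, and Lum shows a wide spread within each day.

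Small leucine-rich proteoglycans coat collagen fibrils and set their spacing, and 3 of them led the matrix genes. Aspn, asporin, read 7.94 and 6.67 at E12.5 and 10.18 and 9.92 at E13.5, a difference of 2.75 ± 0.32 (SE, limma adjusted p = 0.000627). Its E12.5 replicates were more than 2-fold apart, yet both lay far below the E13.5 arrays. Lum, lumican, read 9.13, 8.30, 11.87 and 10.72 (2.58 ± 0.40, adjusted p = 0.0057). Ogn, osteoglycin, read 8.75, 7.64, 10.30 and 10.53 (2.22 ± 0.35, adjusted p = 0.00709). E12.5 replicate 2 was the lowest array for all 3. Their means went on to 10.29, 12.14 and 10.60 at E14.5 and to 11.29, 12.35 and 11.64 at E15.5, each above the E13.5 means of 10.05, 11.30 and 10.42.

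Aspn and Ogn lie in 1 row of such genes on mouse chromosome 13, in the order Ecm2, Aspn, Omd and Ogn. Ecm2 rose by 0.50 ± 0.11 (adjusted p = 0.0328) at a low signal, from 5.90 and 5.84 to 6.27 and 6.47. Omd, osteomodulin, lies between the 2 strongest and read 5.31, 5.36, 5.49 and 5.49, a difference of 0.16 ± 0.11 that was not called (adjusted p = 0.551). The outer neighbours Cenpp (-0.08 ± 0.29) and Nol8 (0.43 ± 0.40) were not called either. On chromosome 10, Dcn, decorin, lies next to Lum. Dcn averaged 12.17 ± 0.42 at E12.5 and 13.33 ± 0.25 at E13.5 (SD, n = 2) without passing the limma test (1.16 ± 0.49, adjusted p = 0.304), and Kera on the other side of Lum differed by 0.08 ± 0.11.

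The windows from 250 bases before to 50 bases after the starts of Aspn and Ogn are shown because these neighbours rose together (RefSeq, GRCm38.p6; Aspn at chr13:49544193-49544492 and Ogn at chr13:49607765-49608064, both on the plus strand). Capitals mark matches on either strand to TATAAA (the TATA box), CCAAT (the CCAAT box) and TTNCNNAA (a loose form of the C/EBP site).
Aspn: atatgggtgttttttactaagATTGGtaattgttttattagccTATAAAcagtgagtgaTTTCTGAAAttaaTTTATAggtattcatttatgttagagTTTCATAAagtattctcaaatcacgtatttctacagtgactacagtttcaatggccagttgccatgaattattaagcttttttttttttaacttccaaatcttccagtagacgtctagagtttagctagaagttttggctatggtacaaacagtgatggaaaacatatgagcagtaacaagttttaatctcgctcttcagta
Ogn: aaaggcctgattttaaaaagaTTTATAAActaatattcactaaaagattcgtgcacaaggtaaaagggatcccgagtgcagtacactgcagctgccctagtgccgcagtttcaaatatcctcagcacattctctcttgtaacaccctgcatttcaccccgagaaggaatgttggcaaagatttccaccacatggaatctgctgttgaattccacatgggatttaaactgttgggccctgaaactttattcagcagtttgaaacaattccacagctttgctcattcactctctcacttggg
The Aspn window holds 2 matches to TATAAA, 1 to CCAAT and 3 to TTNCNNAA, of which 2 overlap, and the Ogn window holds 2 overlapping matches to TATAAA. Of 32851 mouse windows of this length, 13.6% hold the TATA box letters, 37.4% the CCAAT letters and 40.7% a TTNCNNAA match. These are matches of letters only.

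Across the list of 30 measured small leucine-rich proteoglycans and fibre genes, 4 rose, none fell and the median difference was 0.25, against -0.045 over all genes. Over all genes 0.86% rose, the background for this and every list count of rises below. The fourth risen gene of the list was Lox, lysyl oxidase, which cross-links collagen and elastin (10.44, 9.58, 11.96 and 11.36, with a difference of 1.65 ± 0.39, limma adjusted p = 0.0493). In 22 of the 30 both E13.5 arrays lay above both E12.5 arrays, against 16.4% of all genes. Postn, periostin, had a large difference without passing the test (1.43 ± 0.37, adjusted p = 0.0766).

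Of 25 listed collagen chains 2 rose, with a list median of 0.20, and both are chains of collagen VI, a collagen of the pericellular matrix. Col6a2 read 10.73, 10.52, 12.02 and 11.58 (1.18 ± 0.21, adjusted p = 0.0119). Col6a1 read 10.59, 10.66, 11.85 and 11.43 (1.02 ± 0.23, adjusted p = 0.0443). The third chain, Col6a3, differed by 0.68 ± 0.22 (adjusted p = 0.163). Col24a1, a collagen chain outside the list, was called downward (-0.565 ± 0.12, adjusted p = 0.0366). The fibril-forming chains that stood at high signal already at E12.5 were not called, with Col1a1 at 12.97, 12.99, 13.44 and 13.24 and Col3a1 at 12.31, 12.15, 12.90 and 12.76.

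Among 24 matrix proteases and inhibitors 2 rose (list median 0.19). Adamts5, which cleaves aggrecan and related proteoglycans, read 9.46, 8.69, 11.04 and 10.43 (1.66 ± 0.29, adjusted p = 0.0102). Adamts12, of the same family of secreted metalloproteases, rose by 0.94 ± 0.19 (adjusted p = 0.0257). Fap, a surface serine protease of activated fibroblasts, rose by 1.64 ± 0.23 (adjusted p = 0.00313) from 8.58 and 7.61 to 9.91 and 9.55. The protease Adamts16 was high in 1 array only (7.94, 8.11, 9.66 and 7.98) and was not called.

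Among transcription factors of the mesenchyme 4 of 36 measured rose and none fell, and the list median was 0.07. Osr2, an odd-skipped zinc finger factor, read 9.65, 9.45, 12.11 and 10.77 (1.89 ± 0.33, adjusted p = 0.00956). Its 2 E13.5 arrays differed by more than 2-fold, and the larger value came from replicate 1. Ebf1, an early B-cell factor also made in mesenchyme, read 9.21, 9.14, 10.92 and 10.68 (1.63 ± 0.21, adjusted p = 0.00183), with replicates close on both days.

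Ebf2, its relative, read 8.49, 7.93, 9.39 and 8.84 (0.91 ± 0.20, adjusted p = 0.0331). Ebf3, another member of the family, differed by 0.74 ± 0.24 and was not called (adjusted p = 0.169). Tshz1, a teashirt zinc finger factor, read 10.19, 10.17, 10.79 and 11.09 (0.76 ± 0.15, adjusted p = 0.0196). The direction of the list median was not stable, at -0.11 without E13.5 replicate 2 and 0.21 without E13.5 replicate 1. Nfix, a nuclear factor I gene outside the list and named after its values were seen, rose by 1.19 ± 0.20 (adjusted p = 0.00828), from 11.18 and 11.00 to 12.41 and 12.15. Gata6, listed with the genes of neighbouring organs, rose by 0.48 ± 0.11 (adjusted p = 0.0494).

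**Figure D2:**
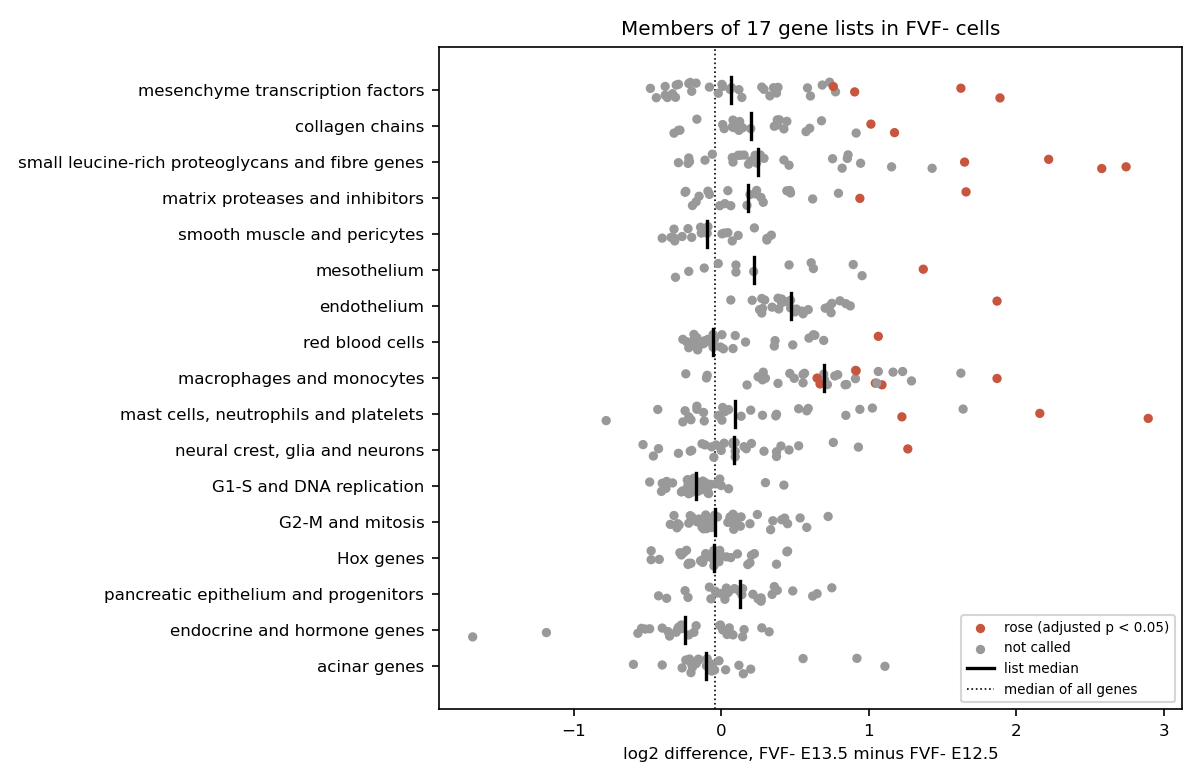
Log2 difference (E13.5 minus E12.5, FVF- cells) of each measured member of 17 gene lists, 1 point per gene, red where the gene rose at an adjusted p under 0.05 and grey where it was not called. The black bars are list medians and the dotted line is the median of all genes, -0.045. The medians of the endothelium (0.47) and macrophage (0.70) lists lie farthest to the right, and few of their points are red.

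Macrophages and monocytes formed the list with the most calls, 6 of 35 risen against 0.86% of all genes, and none fell. Adgre1, the F4/80 antigen of macrophages, read 8.74, 8.88, 10.39 and 9.32 (1.05 ± 0.24, adjusted p = 0.0443). Tyrobp, a signalling adaptor of myeloid receptors, read 9.35, 9.54, 10.73 and 10.34 (1.09 ± 0.25, adjusted p = 0.0469). Cybb, a subunit of the phagocyte oxidase, rose by 0.92 ± 0.21 (adjusted p = 0.0469). Fcgr1, a receptor for antibodies, rose by 0.67 ± 0.13 (adjusted p = 0.0191), and Ptprc, the CD45 phosphatase of blood cells, by 0.65 ± 0.14 (adjusted p = 0.0389). The sixth was Lyve1, which lymphatic vessels share with macrophages.

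The list as a whole lay high. Its median was 0.70, and 32 of the 35 members had a positive difference. In 28 both E13.5 arrays exceeded both E12.5 arrays, against 16.4% of all genes. The mean signal of the members was 9.18 and 9.18 at E12.5 and 10.10 and 9.67 at E13.5, so replicate 1 was higher than replicate 2. Without any 1 of the 4 arrays the list median stayed between 0.51 and 0.95, while the members that rose numbered 0 in 3 of those fits and 11 without E13.5 replicate 2. Csf1r, the receptor on which macrophages depend, read 10.28, 10.66, 11.50 and 10.83 and was not called (adjusted p = 0.316). Cd163, of mature resident macrophages, and Lyz1 ran the other way, at -0.10 and -0.24. In a sorted population, more cells of a type and more RNA in each cell cannot be told apart, and this holds for every change reported here.

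On the list of mast cells, neutrophils and platelets 3 of 30 rose (list median 0.09). Ngp went from 7.72 and 7.76 to 10.57 and 10.70 (2.90 ± 0.30, adjusted p = 0.000382). Lcn2, lipocalin 2, a siderophore-binding protein of the secondary granules, read 8.22, 7.85, 9.94 and 10.45 (2.16 ± 0.28, adjusted p = 0.00183). S100a8, a subunit of calprotectin, read 7.67, 6.77, 8.61 and 8.28 (1.23 ± 0.25, adjusted p = 0.0256).

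Other neutrophil genes of the list did not pass. Ltf, lactoferrin of the secondary granules, read 7.03, 7.02, 7.96 and 7.78 (adjusted p = 0.0816), and S100a9, the partner of S100a8, differed by 0.94 ± 0.24 (adjusted p = 0.0693). Camp, the cathelicidin peptide, differed by 0.14 ± 0.19. The genes of the primary granules, made earlier in neutrophil maturation, were not higher at E13.5: Mpo read 9.07, 8.66, 7.68 and 8.49, and Elane and Prtn3 differed by -0.25 and -0.43. Cpa3, a protease of mast cells, was high in 1 array, at 9.97, 8.85, 10.05 and 12.05, and was not called (1.64 ± 0.45, adjusted p = 0.0951).

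The start windows of the 2 largest neutrophil rises are shown with the same motifs in capitals (Ngp at chr9:110419558-110419857, plus strand; Lcn2 at chr2:32387690-32387989, minus strand).
Ngp: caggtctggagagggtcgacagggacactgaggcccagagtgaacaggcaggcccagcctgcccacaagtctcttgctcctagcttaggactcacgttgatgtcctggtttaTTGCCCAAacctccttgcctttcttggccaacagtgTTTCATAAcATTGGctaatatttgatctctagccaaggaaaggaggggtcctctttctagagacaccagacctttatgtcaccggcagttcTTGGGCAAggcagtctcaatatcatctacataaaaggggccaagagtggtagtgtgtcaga
Lcn2: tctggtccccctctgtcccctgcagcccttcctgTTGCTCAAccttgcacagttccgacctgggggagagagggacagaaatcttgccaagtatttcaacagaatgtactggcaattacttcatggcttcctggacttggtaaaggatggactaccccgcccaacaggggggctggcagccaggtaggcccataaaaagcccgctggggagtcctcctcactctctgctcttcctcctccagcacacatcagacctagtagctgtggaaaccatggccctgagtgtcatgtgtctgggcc
The Ngp window holds 3 matches to TTNCNNAA and 1 to CCAAT, and the Lcn2 window holds 1 to TTNCNNAA.

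The list of antigen presentation and interferon response gave no call in limma among its 21 measured members (2 at an unadjusted p under 0.05), and its median was 0.04. Of the risen genes on no list, 3 are given here that were chosen after their values were seen, and no count or theme rests on them. Gbp7, a guanylate-binding protein, read 7.45, 7.24, 8.23 and 8.61 (1.08 ± 0.13, adjusted p = 0.00126). Ifi203, of the DNA-sensing Ifi200 family, read 6.10, 5.83, 6.83 and 7.35 (1.13 ± 0.19, adjusted p = 0.00914). Ddx58, which encodes the RNA sensor RIG-I, read 8.78, 8.59, 9.48 and 9.53 (0.82 ± 0.12, adjusted p = 0.00402).

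Of 28 endothelial genes 1 was called. All 28 measured members had a positive difference, and the median was 0.47. In 21 both E13.5 arrays lay above both E12.5 arrays, against 16.4% of all genes. The mean signal of the members was 9.46 and 9.67 at E12.5 and 10.34 and 9.86 at E13.5, so replicate 2 of E13.5 stood little above replicate 2 of E12.5. The list median was 0.27 without E13.5 replicate 1 and 0.74 without E13.5 replicate 2, and the members that rose numbered 2 in the latter fit and 0 in the other 3 that left out 1 array. Lyve1 rose by 1.87 ± 0.32 (adjusted p = 0.00888), from 9.45 and 9.31 to 11.76 and 10.74. Pecam1, the CD31 junction protein, read 9.61, 9.96, 10.86 and 10.32, and Kdr, the main VEGF receptor, 9.87, 10.21, 11.07 and 10.42. Neither was called (adjusted p = 0.415 and 0.438), and for both replicate 1 was the higher E13.5 array. Flt4, the receptor for lymphatic growth factors, differed by 0.85 ± 0.34 (adjusted p = 0.271). Its ligand Vegfd, on no list and named after its values were seen, rose by 1.47 ± 0.28 (adjusted p = 0.0191), with 8.48, 8.25, 10.59 and 9.07. The same list had a median of 0.51 in FVF+ cells over these days, and the difference between the sorts was not tested for the list.

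Mesothelium, the surface layer of the organ, gave 1 call among 13 genes (list median 0.22). Lrrn4, a membrane protein marking mesothelium, read 9.78, 9.77, 11.18 and 11.11 (1.37 ± 0.28, adjusted p = 0.0271). Upk3b (10.95, 11.14, 12.11 and 11.20) and Wt1 (11.60, 11.60, 11.56 and 11.84), markers of the same layer, were not called.

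In red blood cell genes 1 of 32 rose and the list median was -0.05. Alas2, the erythroid enzyme of heme synthesis, read 9.40, 9.39, 10.53 and 10.39 (1.07 ± 0.18, adjusted p = 0.00888). The embryonic globin Hbb-y stood near the top of the scale on all 4 arrays, at 13.81, 13.86, 14.46 and 14.40, and Hba-x at 12.99, 13.27, 13.94 and 13.57. Neither passed the test.

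Among genes of neural crest, glia and neurons 1 of 30 rose (list median 0.09). Stmn2, a tubulin-binding protein of growing axons, read 9.91, 9.53, 11.15 and 10.82 (1.27 ± 0.25, adjusted p = 0.0196). Snap25, a synaptic fusion protein, had a like difference, 0.93 ± 0.22, just above the threshold (adjusted p = 0.0546). Sox10, of the crest and its glia, differed by -0.04 ± 0.16.

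Of signalling genes, Bmp2 was the 1 call among 41 genes of the TGF-beta and BMP pathway (6.70, 7.02, 7.73 and 7.83; 0.92 ± 0.19, adjusted p = 0.0256). Ccr1, a chemokine receptor of myeloid cells, was the 1 call among 33 chemokines and cytokines (0.98 ± 0.19, adjusted p = 0.0196). Cd36, a fatty acid receptor of endothelium, macrophages and fat cells, was the 1 call among 20 genes of lipid handling (8.51, 8.42, 10.04 and 9.88; 1.495 ± 0.35, adjusted p = 0.0477). The medians of these 3 lists were 0.03, 0.01 and 0.04.

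Falls were fewer and smaller. Rxfp1, the receptor for relaxin, read 6.76 and 6.73 at E12.5 and 5.76 and 5.83 at E13.5 (-0.95 ± 0.10, adjusted p = 0.000382), a 1.93-fold difference at low signal. It stayed near that level afterwards, with FVF- means of 5.70 at E14.5 and 5.62 at E15.5. Mycn, the neuroblastoma-derived Myc factor of proliferating embryonic cells, read 10.52, 10.57, 9.83 and 10.01 (-0.63 ± 0.12, adjusted p = 0.0151). It was the 1 call among 16 SoxC and embryonic progenitor factors, whose median was -0.20. Over all genes 0.161% fell.

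Cytl1, a secreted protein of cartilage cells, read 9.36, 8.91, 8.20 and 8.26 (-0.91 ± 0.15, adjusted p = 0.0081). Rprm, a p53-induced arrest gene, read 9.45, 9.14, 8.36 and 8.37 (-0.93 ± 0.20, adjusted p = 0.0332). H2az2, a histone H2A variant, was the brightest of the named falls, at 13.03, 13.16, 12.61 and 12.32 (-0.63 ± 0.14, adjusted p = 0.0389). The other 7 named falls, Popdc3, Dpysl4, Ralyl, Klhdc7a, Rnf223, Col24a1 and Upk2, ran from -0.56 to -0.90.

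**Figure D3:**
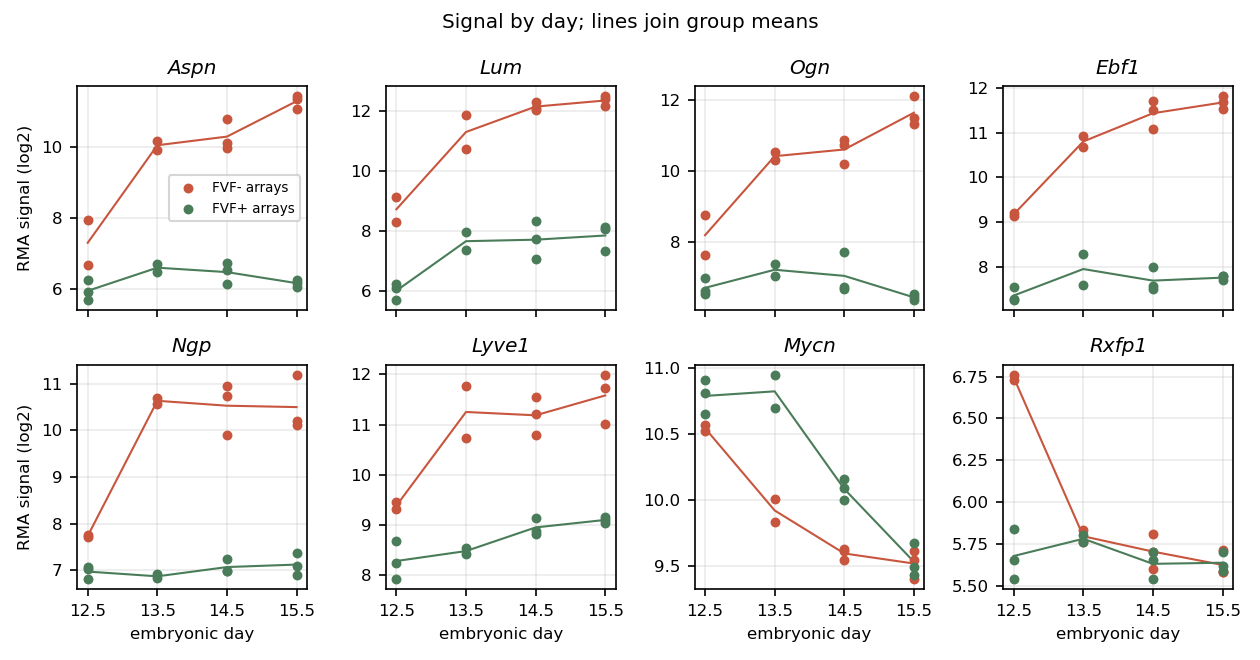
Log2 RMA signal of 8 genes by embryonic day, 1 point per array, FVF- in red and FVF+ in green, with lines joining group means and a vertical scale of its own for each gene. Aspn, Ogn and Ebf1 climb in FVF- cells past E13.5, Ngp reaches its later level by E13.5, and Rxfp1 falls to the FVF+ level.

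Small RNAs were called downward only, 2 small nucleolar RNAs and 2 microRNA genes, and these are named after their values were seen. Over all genes 0.161% fell. Of 50 small nucleolar RNAs measured, Snord53 read 12.21, 12.25, 11.10 and 11.10 (-1.13 ± 0.23, adjusted p = 0.0235) and Snord73a 6.87, 6.74, 6.01 and 6.37 (-0.62 ± 0.14, adjusted p = 0.0441). The median of the 50 was -0.36, below that of all genes. Of 293 microRNA genes Mir92b read 9.54, 9.61, 8.99 and 8.89 (-0.64 ± 0.12, adjusted p = 0.015), and Mir125a 8.59, 8.94, 8.21 and 8.27 (-0.53 ± 0.11, adjusted p = 0.032). Both rested on single arrays: leaving out 1 of the 4 kept the call of Mir92b in 1 fit and that of Mir125a in 2. Mir92b returned to a mean of 9.55 at E15.5. Whether these probe sets read the precursor or the mature form was not tested.

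The mature sequences of these 2 genes are given 5′ to 3′ as the identity of the called genes, with the seed, bases 2 to 8, in capitals (RefSeq, GRCm38.p6; Mir92b on the minus strand at chr3:89227126-89227147 and chr3:89227165-89227188, Mir125a on the plus strand at chr17:17830817-17830840 and chr17:17830855-17830876). The 4 seeds differ from each other.
mmu-miR-92b-3p: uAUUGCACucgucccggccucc
mmu-miR-92b-5p: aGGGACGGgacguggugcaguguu
mmu-miR-125a-5p: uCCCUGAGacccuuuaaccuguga
mmu-miR-125a-3p: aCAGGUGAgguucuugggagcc

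In 27 of the 42 gene lists no member was called by limma, and 109 of their 799 measured members had an unadjusted p under 0.05. That share was near the one over all genes, 2667 of 19296, which is the background for the list counts below. The genes of G1-S and DNA replication (44 measured, 6 at an unadjusted p under 0.05) had a median of -0.17, and those of G2-M and mitosis (49 measured, 0 at an unadjusted p under 0.05) a median of -0.045. The median of the G1-S list was -0.02 without E13.5 replicate 2 and -0.34 without E13.5 replicate 1. The Hox genes (37 measured, 6 at an unadjusted p under 0.05) had a median of -0.05. Genes of smooth muscle and pericytes (21 measured, 2 at an unadjusted p under 0.05) had a median of -0.10. Mesenchyme surface and signalling genes (26 measured, 3 at an unadjusted p under 0.05) had a median of 0.22.

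Markers of the excluded epithelium were also without calls. Of 29 genes of pancreatic epithelium and progenitors 1 had an unadjusted p under 0.05, of 28 endocrine genes 3, and of 25 acinar genes 1. Their medians were 0.13, -0.24 and -0.10. Both E13.5 arrays lay below both E12.5 arrays in 3, 15 and 8 members of these lists, against 28.8% of all genes. Both lay above in 11, 1 and 1 members, against 16.4% of all genes. Gcg, glucagon, read 11.65, 11.57, 10.25 and 9.60 in FVF- cells (-1.69 ± 0.69, adjusted p = 0.288), against 14.19 and 14.03 in FVF+ cells. The acinar genes Ctrb1 (8.77, 8.15, 10.35 and 8.41) and Pnliprp1 (6.54, 6.22, 8.33 and 6.65), the 2 with the largest differences, were high in E13.5 replicate 1 alone. Of the 25 acinar genes 7 had a positive difference, and their mean signal was 7.45, 7.37, 7.49 and 7.31. The part of these transcripts in the called differences was not tested.

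The E13.5 replicates stood at different distances from E12.5. Along the line from the E12.5 mean to the E14.5 mean of FVF- cells, over all genes, replicate 1 lay 55.2% of the way and replicate 2 16.7%. Hmga2, an architectural chromatin protein of embryonic cells that declines later, read 12.92, 13.04, 11.45 and 12.84, and its mean at E14.5 was 10.70. Fgfr2, a receptor for mesenchymal FGF signals, read 11.54, 11.76, 9.95 and 11.05. Smc4, a condensin subunit, went the other way, at 9.75, 9.20, 9.62 and 10.78. None of these 3 was called. Among the 166 risen genes replicate 1 exceeded replicate 2 in 127, and the median rise over the E12.5 mean was 1.05 in replicate 1 and 0.74 in replicate 2. Xist, the X-inactivation RNA, read 12.96, 12.93, 11.79 and 12.90, and Eif2s3y, a Y-linked gene, had means of 9.51 at E12.5 and 10.18 at E13.5. The part of the mix of male and female embryos in the results was not tested.

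The later arrays were outside the contrast, but they entered the fit and so share its estimate of each gene's spread with the 197 calls. Over E14.5 and E15.5, 127 of the 166 risen genes (76.5%) were higher in FVF- than in FVF+ cells at an adjusted p under 0.05 in limma, and 26 (15.7%) were higher in FVF+ cells. The shares over all genes were 23.5% and 28.6%. Of the 31 fallen genes 6 (19.4%) were higher in FVF- and 7 (22.6%) in FVF+ cells. The share higher in FVF- cells was above that of all genes among the rises and near it among the falls. The rises were selected on their FVF- E13.5 signal, which favours genes made in FVF- cells, so no conclusion is drawn from the excess. For Aspn the later difference between the sorts was 4.47, for Lum 4.48 and for Ebf1 3.82 on the log2 scale.

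In FVF+ cells the same step, 2 arrays at E13.5 against 3 at E12.5, gave 1 call (0.00518%), and 1873 genes had an unadjusted p under 0.05. Both FVF+ E13.5 arrays carry a letter in their description and no FVF+ E12.5 array does, so within FVF+ cells day and letter cannot be told apart. The test of the difference between the sorts gave 4 calls (0.0207%), with 2331 genes at an unadjusted p under 0.05. The 4 calls were lost with a term for the letter-coded arrays, which for this contrast equals leaving out FVF- E13.5 replicate 1. Ngp changed by 3.00 ± 0.41 more in FVF- than in FVF+ cells (SE, limma adjusted p = 0.00965), and Rxfp1 by -1.05 ± 0.14 (adjusted p = 0.00965). AF366264, known by its clone name, differed by -0.90 ± 0.14 (adjusted p = 0.0377) and Abca8b, a lipid transporter, by 0.89 ± 0.14 (adjusted p = 0.0445). Abca8b was the call in FVF+ cells, where it fell by 0.70 ± 0.10 on the log2 scale (adjusted p = 0.0228), and it was not called in FVF- cells.

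For most of the genes called in FVF- cells a difference from FVF+ cells was therefore not shown. Aspn differed between the sorts by 2.09 ± 0.43 (adjusted p = 0.17), Lcn2 by 2.08 ± 0.38 (adjusted p = 0.11) and Ebf1 by 1.03 ± 0.29 (adjusted p = 0.208). Lum had a FVF+ difference of 1.65 ± 0.36 that was not called (adjusted p = 0.197), and Lox one of 1.12 ± 0.35 (adjusted p = 0.345). The median of the small leucine-rich proteoglycans and fibre genes was 0.36 in FVF+ cells over the same days, against 0.25 in FVF- cells.

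**Figure D4:**
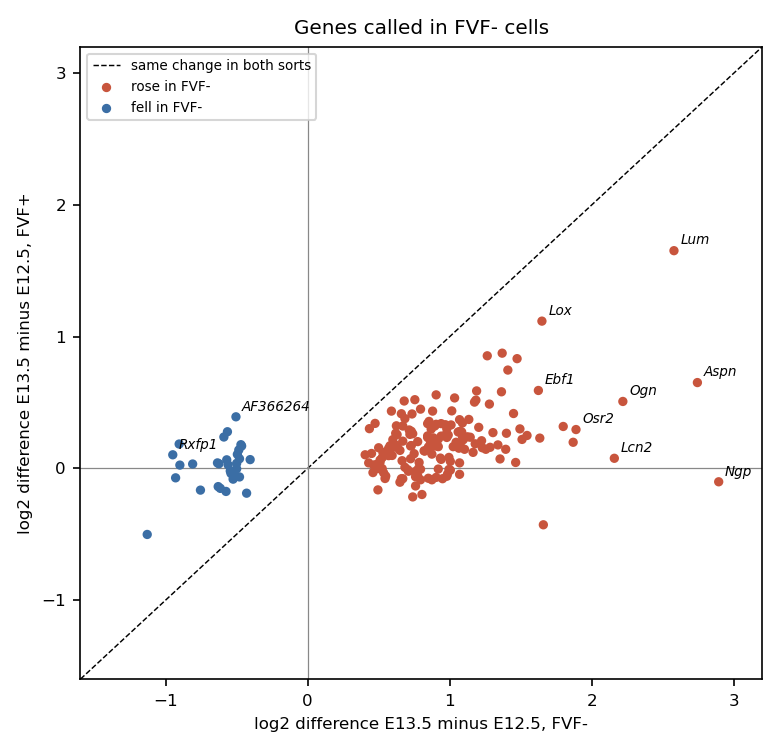
Log2 difference E13.5 minus E12.5 in FVF- cells (horizontal axis) and in FVF+ cells (vertical axis) for the 197 genes called in FVF- cells, red where they rose and blue where they fell. The dashed line marks equal change. Most points lie near 0 on the vertical axis, and Lum and Lox lie highest on it. The genes were selected on the horizontal axis.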

How the data were processed

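Per the labels, total RNA of FACS-sorted pancreatic cells was amplified and labelled with Ambion and Affymetrix kits for whole-transcript arrays. Per the submitters' processing notes, the deposited log2 values are RMA signals made with affy 1.44.0; these notes do not say how the probe sets were defined. All 21 columns of the table matched a sample, and values were used as deposited, with no background correction or normalization added. Intensity over background was not analysed here, so a dim gene's difference may understate the change, and precision is limited by 2 arrays a group.

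Of 23305 probe sets, 20728 had 1 gene symbol in the platform annotation, 1174 several and 1403 none. The brightest probe set stood for each of 19296 genes, 804 of which had several. Symbols were checked against RefSeq through Entrez IDs, and 43 IDs were not found there. An 8-group model of all 21 arrays was fitted with limma 3.58.1 in R 4.3.3 (lmFit and eBayes, 13 residual degrees of freedom), since 2 against 2 arrays leave few of their own. The contrast was FVF- E13.5 minus FVF- E12.5, two-sided, with Benjamini-Hochberg adjustment over all genes and calls at an adjusted p under 0.05. Errors of differences are moderated SE. The step was also run on simulated data with the same spread in every group. The FVF- replicates differed in spread between the days, so no support for the calls is drawn from that run.

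Named genes were the 12 largest rises and falls among calls without overlap, up to 5 called and 2 uncalled members of each of 42 lists, Foxa2, and genes called for the difference between the sorts, passing over predicted genes, small RNAs and chemosensory receptors. Members and lists were chosen with earlier results of these data known. Replicate numbers are shared between groups; deviations of same-numbered FVF- arrays correlated at -0.0977 over genes, so the numbers were not taken as pairs. Alternatives were other ways of combining probe sets, a filter on dim genes, further normalization, other moderation, array weights, a replicate block, a term for letter-coded arrays, fewer arrays in the fit and leaving out each array.

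RefSeq tables held start windows for 136 of the 197 called genes and mature sequences for both called microRNA genes.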

Additional observations from a re-analysis of the deposited data

Results flagged for a closer look

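The change from E12.5 to E13.5 differed between the sorts, by limma's test of the difference itself, for 4 genes. Ngp moved by 2.90 in FVF- and -0.10 in FVF+ cells, a difference of 2.9967 on the log2 scale (SE 0.41, adjusted p = 0.00965), and rose in both E13.5 FVF- arrays. Rxfp1 moved by -0.95 in FVF- and 0.10 in FVF+ cells, a difference of -1.0533 (SE 0.14, adjusted p = 0.00965), and its E13.5 FVF- arrays reached the level that FVF+ cells had on both days (5.68 and 5.78). AF366264 moved by -0.51 in FVF- and 0.39 in FVF+ cells, a difference of -0.8967 (SE 0.14, adjusted p = 0.0377). Abca8b moved by 0.19 in FVF- and -0.70 in FVF+ cells, a difference of 0.8867 (SE 0.14, adjusted p = 0.0445). Both FVF+ E13.5 arrays and 1 of the 2 FVF- E13.5 arrays carry the letter code, so the difference between the sorts is mixed with it. A term for the letter-coded arrays cannot separate them, since for this contrast it equals leaving out FVF- E13.5 replicate 1. The calls also rest on single arrays: without either FVF+ E13.5 array, or without FVF- E13.5 replicate 1, none of the differences between the sorts was called. Groups of 2 arrays are too small for a check of outlying arrays within a group.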

How the results depend on the processing

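The 197 calls (166 rises, 31 falls) became 119 (110 and 9) with array weights and 30 (27 and 3) with the 10 FVF- arrays alone. They became 1 (1 and 0) with the 4 compared arrays alone and 61 (60 and 1) with a 2-fold minimum. The filter on dim genes, which keeps 11407 genes, left 148 calls with 14 falls. For this contrast a term for the letter-coded arrays equals leaving out FVF- E13.5 replicate 2, so it is not a separate alternative. Leaving out each array in turn gave 4 to 413 calls, 2 to 347 rises and 2 to 66 falls. Within 1.5 times of the reported count were a test of every probe set (180), averaging the probe sets of each gene (193), median centring (160), quantile normalization (187), cyclic loess (245), and intensity trend with robust moderation (194).

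The replicate block gave 175 calls for the FVF- comparison and 2 in place of 4 for the difference between the sorts, and the replicates share only a number. That second count was also 1 with the filter on dim genes, 2 with array weights and 2 with a 2-fold minimum. It changed widely when 1 array was left out, and the letter term equals leaving out FVF- E13.5 replicate 1.

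No called gene named by the rule changed direction in any of these fits. The days did not overlap for any called gene. Leaving out or weighting arrays, fitting fewer arrays, other moderation and the filter on dim genes therefore fix the direction in advance. In those fits the kept direction is no support for the calls. With the 10 FVF- arrays alone, 9 of the 29 named rises and 1 of the 12 named falls kept their call. With 2 arrays a day and unlike E13.5 replicates, the number of calls is loosely set, and the cause of its changes was not tested.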
